A study of Homo sapiens with 12 samples.

Results

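The replication-dependent histone genes encode the core histones H2A, H2B, H3 and H4 and the linker histone H1 that package newly made DNA. Their transcripts were followed on 12 Affymetrix arrays of HK-2, an immortalized human line from the epithelium of the renal proximal tubule. Members were all probe sets annotated to exactly 1 gene whose current symbol begins with H1-, H2AC, H2BC, H3C or H4C (the older HIST1H to HIST4H names). There were 58 such probe sets for 50 genes among the 41097 probe sets with 1 gene symbol, out of 54675 on the array. The rule by symbol also took in 4 genes that encode no histone, the non-coding RNA H1-10-AS1 and the pseudogenes H1-9P, H2AC5P and H4C10P, none of which passed the filter described below. A further 20 histone probe sets, 10 of which passed that filter, were annotated to several histone genes at once and were left out.

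The arrays formed 4 groups of 3: cells given CsA, taken here to be cyclosporin A, an inhibitor of the phosphatase calcineurin, for 12 h, vehicle control cells at 12 h, cells given CsA for 48 h, and vehicle control cells at 48 h. All groups were the same single line, carried the same immortalization, and were exposed when nearly confluent in a medium with epidermal growth factor, insulin and hydrocortisone, for which the labels list no serum. None of the sources used here states the dose of CsA or names the vehicle. The labels call the 3 replicates of each group biological without saying whether they came from separate cultures, so the p-values below measure the spread between these samples.

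In dividing cells, the mRNAs of these genes are made mainly in S phase, under the co-activator NPAT, and end in a conserved stem-loop bound by the protein SLBP rather than in a poly(A) tail. Several of the genes, H2BC12, H2AC6, H2BC5 and H2BC21 among them, are also known to yield polyadenylated transcripts. The standard Affymetrix labelling protocol primes from poly(A), so the arrays read mainly polyadenylated histone transcripts. H1-10, which encodes the linker histone H1.X, shares the naming but is not a replication-dependent gene. H1-7 and H1-8 are germ-line linker histones.

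Of the 58 probe sets, 15 (for 14 genes) had a log2 value above 4 on at least 3 of the 12 arrays, which was the filter for entering the tests. They were 2 of H1 (H1-2 and H1-10), 3 of H2A (H2AC6, H2AC14 and H2AC25), 8 of H2B (H2BC4, H2BC6, H2BC9, H2BC12, H2BC12L, H2BC21 and both probe sets of H2BC5), 1 of H3 (H3C6) and 1 of H4 (H4C11). The other 43 were dim: 12 of H1, 8 of H2A, 7 of H2B, 7 of H3 and 9 of H4. Nearest below the filter were H2AC15 (239041_at) and H4C8 (232035_at), above 4 on 2 arrays each, and H2AC17 (214481_at), above 4 on 1 array. H2AC14 lay just inside, between 3.98 and 4.12 on every array, and had no visible range to vary in. H2BC21 was above 4 on all 3 arrays of 1 group only, the 48 h controls, and H2BC4 on all 3 arrays of both control groups, so both entered through the groups in which they were high, and counts over the 15 are descriptions of what was measurable.

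The promoters of 4 genes that the results turn on are shown: H2AC6, H2AC25 and H2BC5 rose over culture time in control cells, and H2BC12 had the smallest p for CsA at 48 h. RefSeq promoter windows (GRCh38.p14, 300 bases around the start of the gene) were found for 43 of the 50 genes and for 13 of the 14 that passed the filter. The windows are H2AC6 (chr6:26123922-26124221, plus strand), H2AC25 (chr1:228457824-228458123, minus strand), H2BC5 (chr6:26157871-26158170, plus strand) and H2BC12 (chr6:27146809-27147108, minus strand). Capitals mark CCAAT boxes (CCAAT or ATTGG), the octamer (ATTTGCAT or ATGCAAAT), an element known from H2B promoters, and TATA boxes (TATAAA or TTTATA, which overlap each other in H2BC12), searched on both strands.
H2AC6: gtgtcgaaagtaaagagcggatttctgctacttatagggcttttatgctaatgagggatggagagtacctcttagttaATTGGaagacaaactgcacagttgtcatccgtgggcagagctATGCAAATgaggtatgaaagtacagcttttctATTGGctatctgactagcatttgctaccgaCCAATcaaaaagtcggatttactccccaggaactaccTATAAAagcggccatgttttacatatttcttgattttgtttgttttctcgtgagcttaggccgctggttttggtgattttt
H2AC25: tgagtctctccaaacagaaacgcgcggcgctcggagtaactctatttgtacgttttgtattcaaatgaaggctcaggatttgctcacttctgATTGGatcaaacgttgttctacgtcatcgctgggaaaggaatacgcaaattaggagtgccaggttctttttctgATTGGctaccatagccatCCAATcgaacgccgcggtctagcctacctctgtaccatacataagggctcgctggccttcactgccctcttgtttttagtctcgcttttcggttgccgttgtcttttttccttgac
H2BC5: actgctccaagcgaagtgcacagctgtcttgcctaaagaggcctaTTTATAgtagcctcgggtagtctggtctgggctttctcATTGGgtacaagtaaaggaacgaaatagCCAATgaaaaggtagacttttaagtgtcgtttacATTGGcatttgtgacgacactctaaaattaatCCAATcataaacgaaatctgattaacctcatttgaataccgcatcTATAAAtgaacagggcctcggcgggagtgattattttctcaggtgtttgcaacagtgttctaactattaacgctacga
H2BC12: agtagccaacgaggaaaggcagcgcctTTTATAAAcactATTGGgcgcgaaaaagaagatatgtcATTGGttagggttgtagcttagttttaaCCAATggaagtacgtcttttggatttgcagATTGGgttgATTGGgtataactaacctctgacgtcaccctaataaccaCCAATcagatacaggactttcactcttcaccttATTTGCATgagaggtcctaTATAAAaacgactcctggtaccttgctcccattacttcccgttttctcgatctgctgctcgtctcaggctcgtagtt

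A CCAAT box was present in 86% of the 43 histone windows and in 35.7% of all 27305 windows of the same length. The octamer was present in 37.2% of the histone windows against 1.8% of all windows, and a TATA box in 65.1% against 12%. Among the 13 genes that passed, 11 had a CCAAT box, 7 the octamer and 10 a TATA box. H2AC25 and H2BC5 had CCAAT boxes and no octamer. H2AC6 and H2BC12 had both. Several genes lie head to head: the windows of H2AC6 and H2BC4 share 255 bases on opposite strands, those of H2AC25 and H2BC26 share 271, and those of H2BC21 and H2AC20 share 265. These matches describe letters in the windows and say nothing of factor binding.

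The whole series gave the following setting. The median SD within a group over the 20631 probe sets tested was 0.116 and 0.115 in CsA and control cells at 12 h, and 0.222 and 0.166 at 48 h. CsA 48 h replicate 3 stood apart in its hybridization spikes (median log2 6.95, against 9.60 to 10.95 on the other arrays) and in a GAPDH 3′ minus 5′ difference of 0.14, the highest of the 12. The labelling spikes of the replicate 1 arrays at 48 h were low (medians of 5.04 for CsA and 4.32 for control, against 8.38 to 10.18 elsewhere), and the ACTB 3′ minus 5′ difference was 1.22 in CsA 48 h replicate 3 and 1.33 in control 48 h replicate 1, against 0.73 to 0.98 elsewhere. Of 5 epithelial markers, the keratins KRT8, KRT18 and KRT19 and EPCAM were above 4 on all arrays and CDH1, which encodes E-cadherin, on none. Also above 4 on all arrays were 6 of 17 proximal tubule marker genes with a probe set (SLC4A4, CDH6, CDH16, PDZK1, GATM and MIOX), while 10, including LRP2, CUBN, SLC34A1 and AQP1, were above 4 on none. Of the markers of other cell types, the fibroblast genes COL1A1 and LUM, podocyte PODXL, and SLC12A1, AQP2 and AQP3 of later tubule segments were above 4 on all arrays. In the same lists, the fibroblast genes COL1A2 and COL3A1, podocyte NPHS1 and WT1, and SLC12A3 and CALB1 of later segments were above 4 on none. None of the endothelial markers, and none of the 3 leukocyte markers with a probe set, was above 4 on any array.

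**Figure D1:**
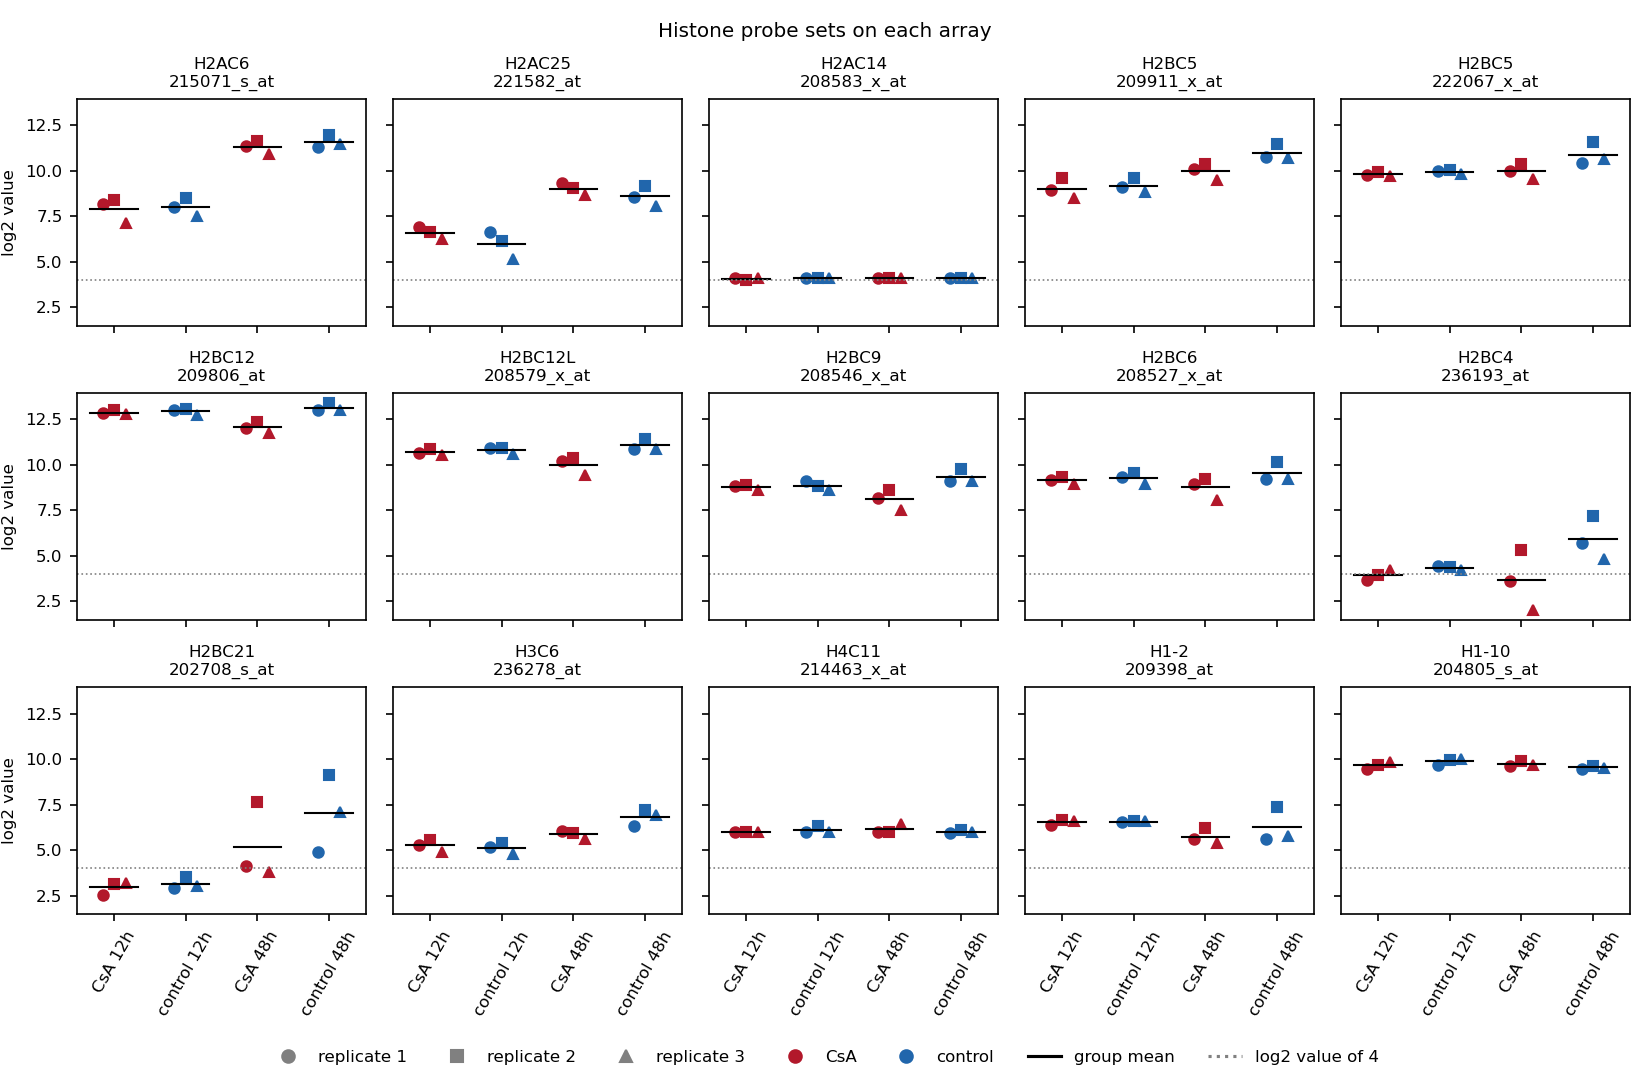
Log2 value (vertical axis) of the 15 histone probe sets that passed the filter on each of the 12 arrays, by group (horizontal axis), with symbols for replicates, black bars for group means and a dotted line at a log2 value of 4. H2AC6 sits between 10.94 and 11.98 at 48 h and between 7.15 and 8.53 at 12 h in CsA and control cells alike, while H2BC12 sits between 11.77 and 12.38 in CsA cells at 48 h and between 12.76 and 13.38 in the other 3 groups.

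The larger changes of the histone probe sets went with culture time. In CsA cells, 2 of the 15 rose by 48 h relative to 12 h at an adjusted p under 0.05 (limma, Benjamini-Hochberg over 20631 probe sets), H2AC6 and H2AC25, and 2 fell, H2BC12 and H1-2. In control cells, 5 of the 15 rose, namely H2AC6, H2AC25, the H2B genes H2BC5 (209911_x_at) and H2BC21, and H3C6, and 1 fell, H1-10. H2BC21 had values above 4 only at 48 h, so the filter favoured a rise for it in the counts here. Over all probe sets tested, 19.6% were called higher and 20% lower in CsA cells, and 20.4% higher and 18.9% lower in control cells. The 48 h arrays lay wholly above the 12 h arrays for 5 of 15 in CsA cells and 8 of 15 in control cells, against 30.4% and 28.4% of all probe sets, and wholly below for 3 and 1 of 15, against 27.4% and 26.9%. In such bulk samples, fewer cells with a transcript and less of it per cell cannot be told apart.

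H2AC6 encodes a core histone H2A of the large histone cluster. In CsA cells its log2 values were 11.34, 11.64 and 10.94 at 48 h, against 8.20, 8.40 and 7.15 at 12 h. In control cells they were 11.30, 11.98 and 11.48 at 48 h, against 7.99, 8.53 and 7.51 at 12 h. The 48 h arrays were far above the 12 h arrays in both treatments with no overlap. The change was 3.40 on the log2 scale in CsA cells (SE 0.365, 10.5-fold, adjusted p 0.00142) and 3.58 in control cells (SE 0.295, 11.9-fold, adjusted p 0.000468).

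H2AC25, an H2A gene outside the large cluster, read 9.32, 9.05 and 8.69 in CsA cells at 48 h, against 6.89, 6.61 and 6.26 at 12 h. Control cells had 8.56, 9.13 and 8.07 at 48 h, against 6.65, 6.14 and 5.17 at 12 h. Again every 48 h array exceeded every 12 h array of its treatment. The log2 change was 2.43 in CsA cells (SE 0.225, 5.41-fold, adjusted p 0.000902) and 2.60 in control cells (SE 0.434, 6.06-fold, adjusted p 0.00514).

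H2BC5 encodes a core H2B histone and was read by 2 probe sets. In CsA cells, 209911_x_at had 10.08, 10.37 and 9.51 at 48 h, against 8.92, 9.58 and 8.48 at 12 h. There the lowest 48 h array lay under the highest 12 h array, and the difference of 0.99 (SE 0.340) had an adjusted p of 0.0623. In control cells it had 10.76, 11.45 and 10.68 at 48 h, against 9.13, 9.59 and 8.83 at 12 h, a rise of 1.78 (SE 0.275, 3.44-fold, adjusted p 0.00387). Probe set 222067_x_at differed by 0.19 in CsA cells (SE 0.214, adjusted p 0.523). In control cells it had 10.40, 11.56 and 10.63 at 48 h, against 10.00, 10.03 and 9.84 at 12 h, a log2 difference of 0.91 (SE 0.297, adjusted p 0.0538). With the replicate number as a block in limma, the adjusted p was 0.0472, but same-numbered control arrays correlated weakly, at 0.124 to 0.295. The control groups did not overlap for either probe set.

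H3C6 encodes a replication-dependent H3. Its probe set 236278_at read 6.04, 5.94 and 5.61 in CsA cells at 48 h, against 5.31, 5.57 and 4.91 at 12 h, with no overlap and a difference of 0.60 (SE 0.205, adjusted p 0.0627). In control cells it read 6.31, 7.21 and 6.95 at 48 h, against 5.19, 5.40 and 4.81 at 12 h, a rise of 1.69 (SE 0.266, 3.23-fold, adjusted p 0.00414). Another H3C6 probe set, 214616_at, was above 4 on no array.

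H2BC21, an H2B gene of a smaller cluster, was near background at 12 h and uneven at 48 h. Its values were 4.11, 7.62 and 3.81 in CsA cells at 48 h, against 2.52, 3.15 and 3.18 at 12 h, and 4.91, 9.12 and 7.10 in control cells at 48 h, against 2.94, 3.54 and 3.00 at 12 h. Replicate 2 was the highest array at 48 h in both treatments. In CsA cells the difference was 2.23 (SE 1.01, adjusted p 0.131). The rise of 3.88 in control cells (SE 0.993, adjusted p 0.0242) starts at values under 4, where the size of a fold is uncertain. Its adjusted p was 0.0754, 0.0569 or 0.0739 without control 12 h replicate 1, 2 or 3, and 0.0651 without control 48 h replicate 3. When dim probe sets were tested too, it was 0.0878. The probe set passed the filter through the 48 h arrays, so the rise was favoured by the filter.

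Falls over time were smaller. H2BC12, an H2B gene of the large cluster, read 12.05, 12.38 and 11.77 in CsA cells at 48 h, against 12.85, 13.0 and 12.77 at 12 h. All 48 h arrays lay under all 12 h arrays, and the change was -0.80 on the log2 scale (SE 0.174, 1.74-fold, adjusted p 0.0143). In control cells the difference was 0.19 (SE 0.142, adjusted p 0.337), with values of 13.01, 13.38 and 13.0 at 48 h, against 13.0, 13.08 and 12.76 at 12 h. The CsA call had an adjusted p of 0.0503 without CsA 12 h replicate 1, 0.0568 without CsA 12 h replicate 2, and 0.0508 when dim probe sets were tested too.

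H1-2, a replication-dependent linker histone, read 5.60, 6.21 and 5.37 in CsA cells at 48 h, against 6.40, 6.67 and 6.61 at 12 h, a change of -0.83 (SE 0.228, adjusted p 0.0312). The adjusted p was 0.0662, 0.0999 or 0.0978 without CsA 12 h replicate 1, 2 or 3, and 0.0938 without CsA 48 h replicate 1. It was 0.102 in a fit of all 12 arrays and 0.0968 when dim probe sets were tested too. In control cells it read 5.61, 7.37 and 5.78 at 48 h, against 6.52, 6.61 and 6.58 at 12 h, a difference of -0.31 (SE 0.455, adjusted p 0.613). Replicate 2 alone lay above the 12 h controls, and without it the difference was -0.87 (adjusted p 0.00312).

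H1-10 differed over time by 0.071 in CsA cells (SE 0.141, adjusted p 0.715). In control cells it read 9.48, 9.61 and 9.53 at 48 h, against 9.70, 9.92 and 10.03 at 12 h, a change of -0.35 (SE 0.108, adjusted p 0.0465). That call was lost on leaving out control 12 h replicate 2 or 3 or any control 48 h array, where adjusted p ran up to 0.14. The H4 gene H4C11 stayed between 5.92 and 6.44 on all 12 arrays, with time differences of 0.15 (adjusted p 0.423) in CsA cells and -0.10 (adjusted p 0.512) in control cells. On the CsA arrays at 12 h it read 5.995, 5.985 and 5.998 (SD 0.00717), where the median SD over all probe sets tested was 0.116. So narrow a spread leaves unclear whether this probe set could show a change.

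The remaining H2B probe sets were not called over time. In CsA cells, H2BC4 differed by -0.31, H2BC9 by -0.67, H2BC6 by -0.39 and H2BC12L by -0.70, with adjusted p between 0.0741 and 0.781. In control cells, H2BC4 differed by 1.58 (SE 0.563, adjusted p 0.0691), H2BC9 by 0.47 (adjusted p 0.133), H2BC6 by 0.28 (adjusted p 0.484) and H2BC12L by 0.24 (adjusted p 0.358). The time difference was negative for 5 of 8 H2B probe sets in CsA cells and positive for all 8 in control cells, H2BC21 with its filter limit among them. Over all probe sets tested, the median time difference was 0.015 in CsA cells and 0.015 in control cells. H2AC6 and H2BC4, which share most of their promoter window, differed over time by 3.40 and -0.31 in CsA cells and by 3.58 and 1.58 in control cells. Whether the members of the pair differ from each other was not tested. When the 43 dim probe sets were tested too, 5 of the 58 were called higher in control cells over time (H2AC6, H2AC25, H2BC5, H3C6 and the dim H4C8) and 0 lower, where 8.42% of all 41097 probe sets were called higher and 7.91% lower.

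**Figure D2:**
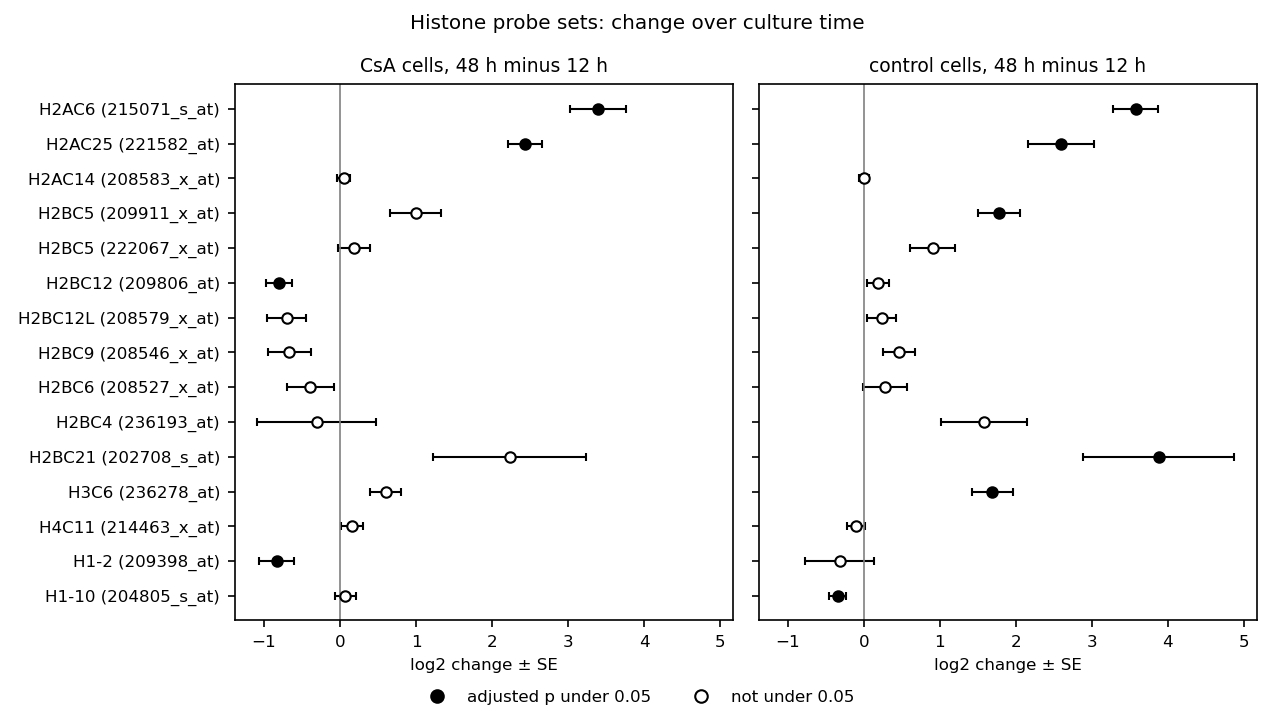
Log2 change from 12 h to 48 h (horizontal axis, with SE bars from limma) of the 15 histone probe sets in CsA cells (left) and control cells (right), with filled symbols where the adjusted p was under 0.05. H2AC6 and H2AC25 are filled and above 2 in both panels, and H2BC12 is filled at -0.80 in CsA cells and open at 0.19 in control cells.

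The question the series was built around is the response to CsA. At 12 h no histone probe set was called, and neither was any of the 20631 probe sets tested (0% in either direction in limma, with 3.69% higher and 2.82% lower at an unadjusted p under 0.05, H2BC4 among them). Differences ran from -0.39 for H2BC4 to 0.60 for H2AC25, negative for 13 of 15 where 51.3% of all probe sets were below 0, with a median of -0.11 over the 15 against a median of -0.0029 over all probe sets tested. With 1 array left out in turn, the median over the 15 ran from -0.208 without control 12 h replicate 3 to -0.00911 without control 12 h replicate 2. CsA and control arrays overlapped for 15 of 15, where 6.2% of all probe sets lay wholly higher and 5.78% wholly lower. H2AC25 had 6.89, 6.61 and 6.26 in CsA cells, against 6.65, 6.14 and 5.17 in control cells, a difference of 0.60 (SE 0.384, adjusted p 0.851). The 12 h arrays pair by replicate number, which the overlap and these SEs ignore. With the number as a block in limma, the SE was 0.18 for H2AC25 (adjusted p 0.34). For H1-10, at -0.215, it was 0.0534 (adjusted p 0.311), and no probe set was called.

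At 48 h no histone probe set was called either (8 of 20631, or 0.0388%, were called lower and 0% higher in limma, with 11.9% lower and 7.62% higher at an unadjusted p under 0.05, which 6 of the 15 reached), but the 8 H2B probe sets all had values below control. Each had a difference of -0.5 or less, and so did 10 of the 15 histone probe sets, against 11.8% of all probe sets tested. These counts include H2BC4 and H2BC21, which were above 4 on all 3 arrays in control groups only. For these genes the filter favoured a lower CsA value. The CsA arrays lay wholly under the control arrays for 6 of 15, namely H2BC12, H2BC12L, H2BC9, both probe sets of H2BC5, and H3C6, against 15% of all probe sets. For H1-10 they lay wholly above, against 12.5% of all. The median difference was -0.88 over the 15, -1.07 over the 8 of H2B and -0.011 over all probe sets tested. Without control 48 h replicate 2 the median over the 15 was -0.529. The H2B coding sequences are nearly alike and 5 of the 8 probe sets carry x_at names, which mark probes shared with related sequences, so they are not separate observations.

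H2BC12 had the smallest p of the histone probe sets at 48 h. The CsA values of 12.05, 12.38 and 11.77, against the control values of 13.01, 13.38 and 13.0, gave a difference of -1.06 (SE 0.198, 2.09-fold lower, adjusted p 0.0841). Each CsA 48 h array lay below every control array of either time. The probe set carries neither an x_at nor an s_at name.

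H2BC9 read 8.18, 8.62 and 7.51 in CsA cells at 48 h, against 9.09, 9.76 and 9.13 in control cells, a difference of -1.23 (SE 0.326, adjusted p 0.135). H2BC12L, a close copy of H2BC12 on another chromosome, read 10.19, 10.37 and 9.45 in CsA cells, against 10.87, 11.45 and 10.89 in control cells, a difference of -1.07 (SE 0.289, adjusted p 0.138). H2BC6 read 8.97, 9.23 and 8.09 in CsA cells, against 9.25, 10.15 and 9.22 in control cells, a difference of -0.77 (SE 0.380, adjusted p 0.328). In each of these, replicate 3 was the lowest CsA array and replicate 2 the highest control array, and for H2BC6 the groups overlapped by a narrow margin.

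For H2BC5, 209911_x_at read 10.08, 10.37 and 9.51 in CsA cells at 48 h, against 10.76, 11.45 and 10.68 in control cells, a difference of -0.98 (SE 0.297, adjusted p 0.165). Probe set 222067_x_at read 10.0, 10.38 and 9.57 in CsA cells, against 10.40, 11.56 and 10.63 in control cells, a difference of -0.88 (SE 0.355, adjusted p 0.25). H3C6 read 6.04, 5.94 and 5.61 in CsA cells, against 6.31, 7.21 and 6.95 in control cells, a difference of -0.96 (SE 0.256, adjusted p 0.136). The CsA arrays lay below the control arrays for all 3 probe sets.

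H2BC4 had the lowest value of the differences, -2.27 (SE 0.943, adjusted p 0.258), from 3.61, 5.31 and 2.04 in CsA cells at 48 h, against 5.72, 7.22 and 4.85 in control cells. The groups overlapped and 2 of the CsA arrays were under 4. H2BC21 differed by -1.86 (SE 1.39, adjusted p 0.509), with arrays from 3.81 to 7.62 in CsA cells and from 4.91 to 9.12 in control cells. H1-2 differed by -0.53 (SE 0.500, adjusted p 0.607), and by 0.030 without control 48 h replicate 2.

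The H2A genes that rose over time had overlapping CsA and control arrays at 48 h. H2AC6 averaged 11.31 ± 0.352 in CsA cells at 48 h and 11.59 ± 0.349 in control cells (SD, n = 3 each), a difference of -0.28 (SE 0.248, limma adjusted p 0.585). H2AC25 averaged 9.02 ± 0.318 in CsA cells and 8.59 ± 0.534 in control cells (SD, n = 3 each), a difference of 0.43 (SE 0.303, limma adjusted p 0.479). The arrays overlapped for both. H1-10 differed by 0.20 (SE 0.124, adjusted p 0.421), H4C11 by 0.15 (adjusted p 0.641) and H2AC14 by 0.0078 (adjusted p 0.977).

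Leaving out CsA 48 h replicate 3, the array that stood apart and the lowest CsA array for all 8 H2B probe sets, the differences were -0.91 for H2BC12, -0.93 for H2BC9, -0.79 for H2BC12L, -0.84 for H3C6, -0.44 for H2BC6 and -1.47 for H2BC4, with no call. Leaving out control 48 h replicate 2, they were -0.94 for H2BC12, -1.01 for H2BC9, -0.88 for H2BC12L, -0.77 for H3C6, -0.529 for H2BC5 (222067_x_at), -0.47 for H2BC6, -1.63 for H2BC4 and -0.82 for H2BC21. A fit of all 12 arrays, with 8 residual degrees of freedom against 4, called 4 histone probe sets lower at 48 h, H2BC12 (adjusted p 0.00445), H2BC9 (0.0177), H2BC12L (0.0189) and H3C6 (0.0344), with 8.18% of all probe sets called lower. On simulated data such a fit had given too many false calls at 48 h, so these calls are not taken as support. Its SE was smaller for H2BC12 (0.165, against 0.198 on the 48 h arrays alone) and larger for H2AC6 (0.356, against 0.248).

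**Figure D3:**
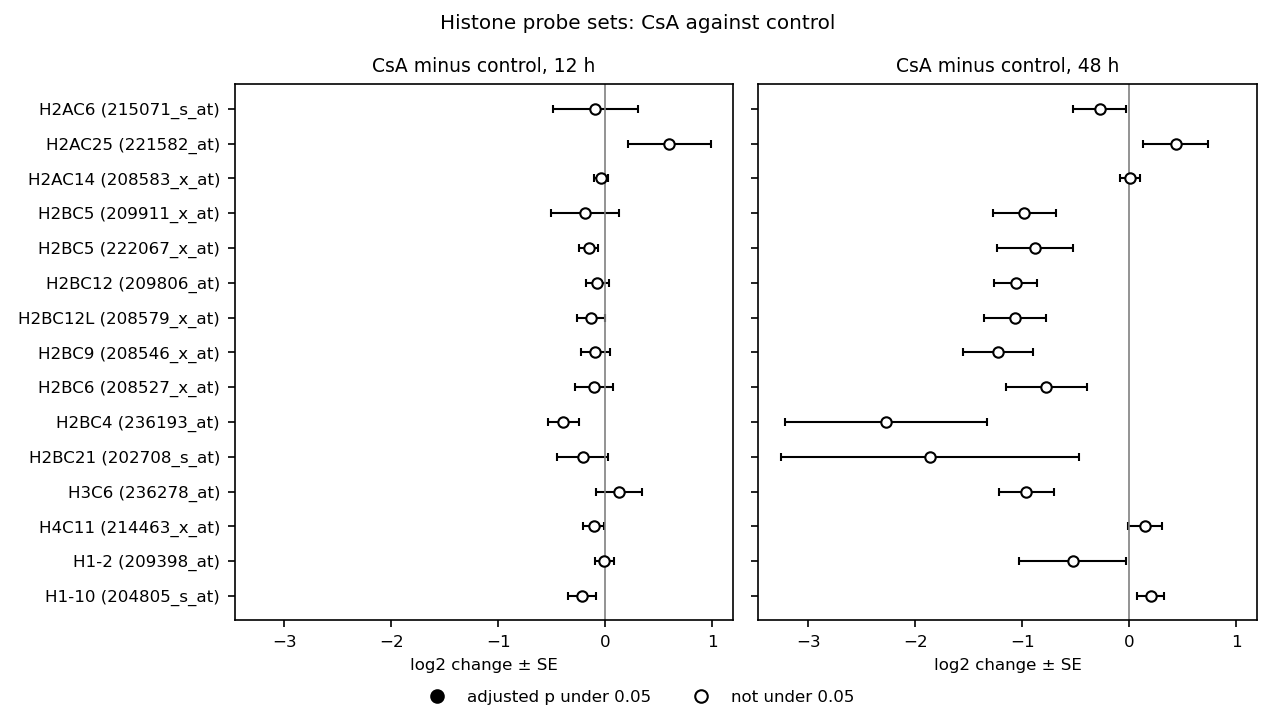
Log2 difference of CsA minus control (horizontal axis, with SE bars from limma) of the 15 histone probe sets at 12 h (left) and 48 h (right), all with open symbols because no adjusted p was under 0.05. At 12 h the symbols lie between -0.39 and 0.60. At 48 h all 8 H2B probe sets lie at -0.77 or below, and H2AC25 at 0.43.

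Whether the CsA effect at 48 h differed from that at 12 h was tested over all 12 arrays. No histone probe set was called, and 0.0436% of all probe sets were called higher and 0.276% lower (limma, with 5 of the 15 histone probe sets at an unadjusted p under 0.05, which 5.91% of all reached higher and 9.55% lower). The difference of effects was -0.99 for H2BC12 (SE 0.234, adjusted p 0.0965), -1.13 for H2BC9 (adjusted p 0.201), -1.09 for H3C6 (adjusted p 0.193) and -0.94 for H2BC12L (adjusted p 0.225). The difference of effects was negative for 8 of 8 H2B probe sets, with medians of -0.72 over the 15 and -0.018 over all probe sets tested. Among the 8 are H2BC4 and H2BC21, which entered the tests through control groups. Without control 48 h replicate 2 the median over the 15 was -0.374. This is also the test of whether the time change of H2BC12 differed between CsA and control cells. Without CsA 48 h replicate 2, H2BC12 was called at -1.15 (adjusted p 0.0382). It was also called with the replicate number within each time as a block (adjusted p 0.0352), although the numbers paired the arrays at 12 h and not at 48 h. The CsA comparison at 48 h and the time comparison in controls share the 48 h control arrays, so their values are not independent of each other.

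Genes that accompany histone supply in S phase were read from lists of other genes. The counts over time in all these lists stand beside the shares of all probe sets tested. Those were 19.6% called higher and 20% lower in CsA cells, and 20.4% higher and 18.9% lower in control cells. Of 42 probe sets of 25 S phase genes, 40 were called lower at 48 h against 12 h in CsA cells (median -2.62) and all 42 in control cells (median -1.97). PCNA, the sliding clamp of DNA polymerase, read 12.52, 12.38 and 11.85 in CsA cells at 48 h, against 14.49, 14.39 and 14.40 at 12 h, a change of -2.17 (adjusted p 0.000718). In control cells PCNA read 13.17, 12.85 and 12.76 at 48 h, against 14.51, 14.48 and 14.48 at 12 h, a change of -1.57 (adjusted p 0.000381). Of 30 probe sets of 16 mitosis genes, 30 fell in CsA cells (median -2.87) and 29 in control cells (median -2.58). The rises of H2AC6, H2AC25, H2BC5 and H3C6 in control cells lay beside falls of S phase and mitosis transcripts on the same arrays. The part of cell cycling in the histone values was not tested.

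For the machinery that makes and trims histone mRNA, 57 probe sets of 29 genes were read. Of these, 7 rose and 21 fell in CsA cells over time (median -0.24), and 6 rose and 20 fell in control cells (median -0.16). SLBP fell by 0.79 in CsA cells (adjusted p 0.00152). In control cells SLBP read 12.37, 12.16 and 12.28 at 48 h, against 12.92, 12.86 and 12.90 at 12 h, a change of -0.63 (adjusted p 0.00231). NPAT (209798_at) fell by 1.13 in CsA cells (adjusted p 0.00829) and by 0.60 in control cells (adjusted p 0.0141). CASP8AP2, a partner of NPAT in histone transcription, fell by 1.4 in CsA cells (adjusted p 0.000644) and by 0.88 in control cells (adjusted p 0.000781). None of the 57 was called for CsA against control at either time. TUT4 (217594_at), which adds uridines to RNA tails, had the smallest p among them at 48 h, with a difference of 2.3 (SE 0.348, adjusted p 0.0662), while its probe set 212704_at differed by -0.30 (adjusted p 0.252).

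The replication-independent variants that were called mostly fell. Of 20 probe sets of 8 variant genes, 1 rose and 12 fell in CsA cells over time (median -0.91), and 1 rose and 12 fell in control cells (median -0.58). H2AZ1 (200853_at), the H2A variant of promoters, fell by 0.96 in CsA cells (adjusted p 0.000736) and by 0.74 in control cells (adjusted p 0.000871). H2AX (205436_s_at), the variant phosphorylated at DNA breaks, fell by 2.05 in CsA cells (adjusted p 0.000851) and by 1.95 in control cells (adjusted p 0.000145). H2AX is itself made with both stem-loop and polyadenylated ends. H3-3B had no value of its own here.

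Among histone chaperones, import and acetylation factors, 1 of 56 probe sets rose and 26 fell in CsA cells over time, and 5 rose and 22 fell in control cells (medians of -0.41 and -0.22). ASF1B, a chaperone of H3 and H4 in dividing cells, changed by -6.10 in CsA cells (adjusted p 0.00278) and by -4.13 in control cells (adjusted p 0.000351). Its CsA arrays at 48 h read 3.29, 3.37 and 6.31, and the values under 4 make the size of the CsA change uncertain. CHAF1A (203975_s_at), a subunit of the replication-coupled assembly factor, fell by 2.70 in CsA cells (adjusted p 0.000171) and by 2.62 in control cells (adjusted p 0.000464). For CsA against control at 48 h, 1 of the 56 was called: NASP (201969_at), which keeps the soluble pool of H3 and H4, was lower by a log2 difference of -1.80 (SE 0.122, adjusted p 0.0407), with -0.84 (adjusted p 0.071) for its probe set 201970_s_at. CCNE2 (211814_s_at), an S phase cyclin, was the 1 call among the S phase genes, at -2.36 (SE 0.196, adjusted p 0.0407). Its CsA arrays at 48 h read 3.88, 3.41 and 3.29, all under 4, so the size of that difference is uncertain. The other CCNE2 probe set, 205034_at, was not called. Of all probe sets tested, 0.0388% were called lower for CsA at 48 h.

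The remaining S phase list at 48 h showed lower values in CsA cells without calls. The median was -0.79 over its 42 probe sets, against -0.011 over all probe sets tested. Of the 42, 39 were negative, and 23 had CsA arrays wholly under the control arrays. Of all probe sets tested, 15% lay wholly lower. MCM4 (222036_s_at) and MCM6 (201930_at), subunits of the replicative helicase, differed by -0.98 each (adjusted p 0.0662 each). For the mitosis genes the median was -0.66, with 0 of 30 called and 2 wholly lower. CDKN1A, the inhibitor of cyclin-dependent kinases known as p21, rose by 2.21 in CsA cells over time (adjusted p 0.00263) and by 1.92 in control cells (adjusted p 0.000443), and differed by 0.40 (adjusted p 0.49) for CsA at 48 h. In the list of cell cycle exit genes to which it belongs, 9 of 21 probe sets rose and 7 fell in CsA cells, and 5 rose and 2 fell in control cells. The shares of all probe sets were 19.6% higher and 20% lower in CsA cells, and 20.4% and 18.9% in control cells.

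By array, the H2B probe sets and the cell cycle lists did not run in parallel at 48 h. The mean of the 8 H2B probe sets was 8.40, 9.29 and 7.72 in CsA replicates 1 to 3, against 9.25, 10.51 and 9.44 in control replicates 1 to 3. That mean includes H2BC4 and H2BC21, which ran from 2.04 to 7.22 and from 3.81 to 9.12 at 48 h and widen its spread. The mean of the 42 S phase probe sets was 8.14, 7.95 and 8.76 in the same CsA arrays, against 9.23, 8.98 and 8.89 in the control arrays. The mean of the 30 mitosis probe sets was 7.12, 6.64 and 8.88 in CsA arrays, against 8.54, 8.13 and 8.09 in control arrays. CsA replicate 3 was the lowest of its group for H2B and the highest for S phase and mitosis genes, and it is the array with the low hybridization spikes. The part of that array's quality in these values was not tested.

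**Figure D4:**
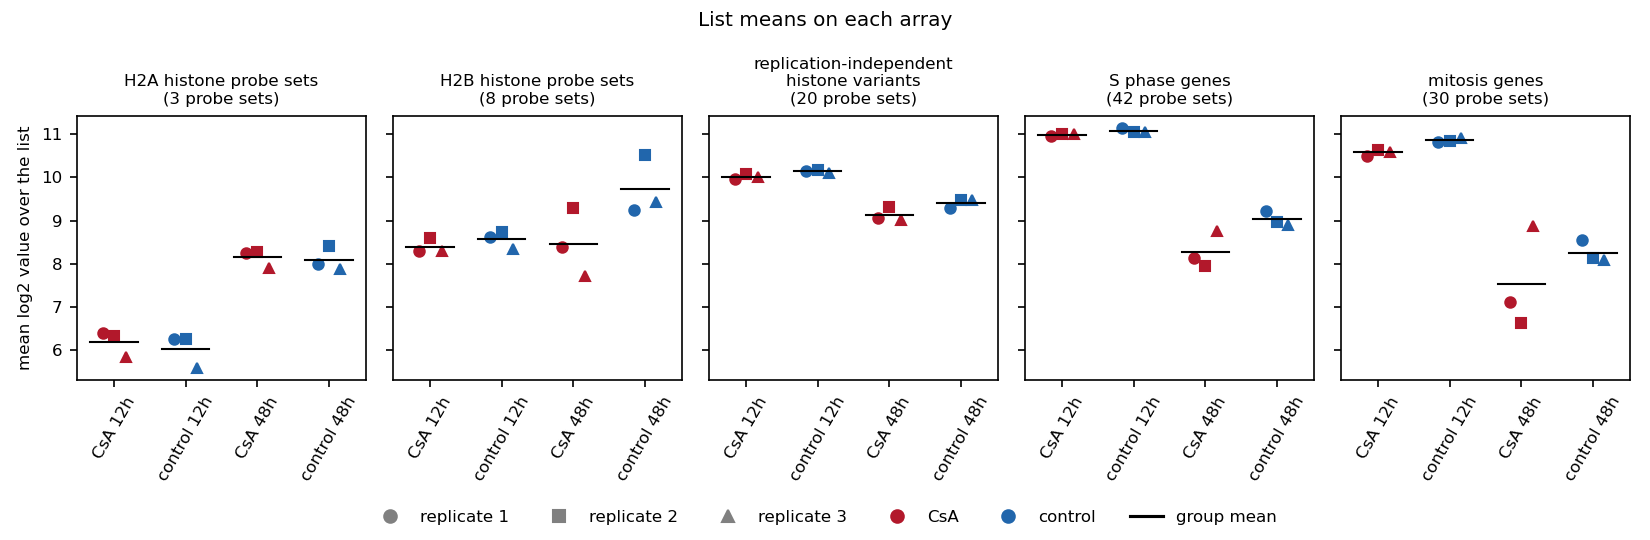
Mean log2 value over 5 lists of probe sets (vertical axis) on each array, by group (horizontal axis), with symbols for replicates and black bars for group means. The H2A mean lies at 7.88 to 8.40 at 48 h and at 5.59 to 6.40 at 12 h over both treatments, whereas the S phase mean lies at 7.95 to 9.23 at 48 h and at 10.97 to 11.14 at 12 h.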

How the data were processed

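HK-2 cells were profiled on 12 Affymetrix arrays, 3 per group. The authors deposited log2 probe set values made with GCRMA, per the submitters' processing notes. No source used here names its version or settings. By its usual settings GCRMA pulls dim probe sets to a floor, which makes folds against values under 4 uncertain. The number of arrays limits the precision. No 2 of the 12 arrays held identical values.

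Genes came from the platform annotation (1 symbol for 41097 probe sets, several for 1801, none for 11777), with symbols updated from a RefSeq table. No source used here names the annotation's build, so no coordinates from it are printed. The promoter windows have RefSeq coordinates on GRCh38.p14. Probe sets with 1 symbol and a log2 value above 4 on at least 3 arrays (20631) were tested in limma 3.58.1 (R 4.3.3) with lmFit and eBayes, on the 6 arrays of the groups compared, since the 48 h arrays spread more widely. The difference of effects used all 12. Tests were two-sided, with Benjamini-Hochberg adjustment over all probe sets and a threshold of 0.05; every adjusted p in the text is of this kind. The fits were tested on simulated data, where a fit of all 12 arrays had given too many false calls at 48 h.

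Arrays were checked for pairing by replicate number through correlated deviations from the group means. The labels give the number, and same-numbered arrays correlated at 0.392 to 0.55 at 12 h and at 0.124 to 0.295 between controls, above the minimum of 0.1 for every pair. Array values are given in full for members past the threshold in any comparison, for up to 8 with the largest change and a mean of at least 6, and for a few members always included; other members named were chosen after their values were seen. The members and lists were chosen with earlier results of these data known. Alternatives included the 12-array fit, the replicate block, filters, array weights, median centring, and leaving out each array.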

Additional observations from a re-analysis of the deposited data

How the results depend on the processing

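Over all alternatives tried, no histone probe set was called for CsA at 12 h, and none was called higher for CsA at 48 h. At 48 h, 4 were called lower with all 12 arrays in 1 fit and 4 with array weights (H2BC12, H2BC9, H2BC12L and H3C6 in both), where 8 probe sets were called lower in all by the time-specific fit, 1687 by the 12-array fit and 1459 with array weights. The other alternatives called between 0 and 98 lower there, and between 0 and 962 lower for the difference of effects, against 57. At 12 h the 12-array fit called 1 probe set, which was no histone. Over time in control cells, 4 to 6 were called higher and 0 or 1 lower when arrays were left out in turn. H1-10 made up the lower count, except that H1-2 did without control 48 h replicate 2, and the count was 0 with all 12 arrays in 1 fit, with no filter, with array weights, without both 48 h replicate 1 arrays, over the 5 members without s_at or x_at names, and over the 14 replication-dependent members. Those 5 members had 2 called higher and a median of 1.58. Over time in CsA cells, 2 to 4 were called higher and 0 to 3 lower when arrays were left out in turn. Array weights gave 4 higher and 4 lower there, the replicate block 4 higher, no filter 1 lower (the dim H3C2, with H2BC12 at an adjusted p of 0.0508 and H1-2 at 0.0968), the fit without both 48 h replicate 1 arrays 1 lower (H2BC12), and the members without s_at or x_at names 1 higher, with a median of -0.31. The 12-array fit gave 3 higher and 2 lower there, with H2BC5 (209911_x_at, adjusted p 0.0303) and H2BC12L (0.0332) gained and H1-2 (0.102) lost. The median over the 15 ran from -1.08 to -0.529 for CsA at 48 h and from -0.923 to -0.374 for the difference of effects over the left-out arrays. For the difference of effects, H2BC12 was called lower (1 member) with the replicate block (adjusted p 0.0352), with array weights (0.0204) and without CsA 48 h replicate 2 (0.0382), and 0 or 1 were called when arrays were left out in turn. Adjusted p of H2BC12 for that difference ran from 0.0382 to 0.235 over the left-out arrays. With no filter, the medians over all 58 were 0.00497 for CsA at 48 h, 0.00716 over time in controls and 0.00742 for the difference of effects, as most of the added probe sets are dim. The cause of the other changes was not tested.

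Some uncalled members turned sign when an array was left out, and their ranges over the left-out arrays follow. For CsA at 12 h, H2BC5 (209911_x_at) ran from -0.484 to 0.0666, H2BC6 from -0.269 to 0.0288, H2AC6 from -0.347 to 0.289, H2BC21 from -0.326 to 0.0048 and H1-2 from -0.0627 to 0.0724. For CsA at 48 h H1-2 ran from -0.848 to 0.0298, with the positive value without control 48 h replicate 2. Over time in controls H1-2 ran from -0.872 to 0.0053, the highest without control 48 h replicate 1 and also without both 48 h replicate 1 arrays. Over time in CsA cells H1-10 ran from -0.0253 to 0.166. For the difference of effects, H1-2 ran from -0.840 to 0.0374 and H2AC6 from -0.565 to 0.0707. The replicate numbers did not pair the arrays for CsA at 48 h (correlations of -0.149 to 0.306) or over time in CsA cells (-0.0739 to 0.19). There the block left 0 calls among all probe sets for CsA at 48 h and added H2BC5 (209911_x_at), H3C6 and H2BC12L over time in CsA cells. Where the numbers paired the arrays, the block changed no call other than that of H2BC5 (222067_x_at).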
